A study of Mus musculus with 60 samples.

Results

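Visceral fat from mice on control diet was compared between mice that carried induced NaKtide and mice without it, 5 libraries against 5, which are 10 of the 60 libraries of the series. The libraries were taken by their labels alone: tissue visceral fat, diet control, and NaKtide present or absent. The peptide NaKtide binds the Src kinase and blocks its activation by the Na,K-ATPase, the sodium pump of the plasma membrane. All mice ate control chow with 11% of fat for 12 weeks. Mice of the NaKtide group carried the peptide as a transgene, and their chow held 300 mg/kg doxycycline, the drug that switches the transgene on. For mice of the other group the labels name neither the transgene nor doxycycline, so an effect of the drug and an effect of the peptide cannot be told apart here. The series title speaks of adipocytes, but the labels used here name no promoter, strain, sex or age. The transgene has no gene ID in the tables, so the NaKtide label could not be checked against its own transcript. By the study's design each group had 5 mice, and it is not stated whether a mouse also gave libraries of other tissues.

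White fat stores triglyceride in adipocytes and releases hormones such as leptin and adiponectin. It also holds macrophages, lymphocytes, fibroblasts and vessels, and when fat expands, macrophages gather around dying adipocytes, take up lipid and switch on lysosomal and lipid-handling genes. In the signalling model behind NaKtide, the Na,K-ATPase passes oxidant signals through Src and so adds to further oxidant production.

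RNA was read as paired stranded mRNA libraries and counted per gene, and levels are given as CPM, the counts of a gene per M counts of its library, after scaling by the trimmed mean of M values (TMM). Depth was 5.32 to 8.07 M counts in the control group and 6.29 to 7.81 M counts in the NaKtide group. No 2 of the visceral libraries held identical counts. Several libraries stood apart. Genes of epididymis, male germ cells and Leydig and Sertoli cells, which are tissues that lie against the epididymal fat pad, together reached 748, 60.6, 30200, 67100 and 39400 CPM in control replicates 1 to 5. In the NaKtide group the same sum was 16500, 448, 38.0, 30.4 and 63.6 CPM. Thus 3 of the 5 control libraries and NaKtide replicate 1 lay above 1000 CPM, and the control group held more of this RNA than the NaKtide group. These 4 libraries are called tract libraries below.

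Among single transcripts, Gpx5, a secreted peroxidase of the epididymis, stood at 147, 13.5, 2970, 13800 and 6550 CPM in the control libraries and at 4010, 175, 2.00, 1.43 and 7.94 CPM in the NaKtide libraries. The sperm protamine Prm2, a marker of late germ cells, stood at 68.4, 0.238, 635, 168 and 2680 CPM and at 892, 3.64, 1.23, 0.78 and 2.34 CPM. Control replicate 4 was therefore rich in epididymal transcripts, and control replicate 5 in germ cell transcripts as well. Markers of adipocyte identity, 24 genes, summed to 51200, 45200, 26400, 15200 and 2720 CPM in the control libraries, so the sum was lower in each of the 3 control tract libraries than in the other two. The NaKtide libraries stood at 22700, 37900, 39600, 38400 and 39200 CPM. Adipocyte markers were thus detected in every library, with the lowest sum in control replicate 5, where tract and testis genes summed to 39400 CPM. These markers do not tell visceral from other fat, so the depot in the label was not checked by them. The comparison was fitted with all 10 libraries, without NaKtide replicate 1, and without tract libraries; the last fit drops every visceral library above 1000 CPM, Western diet included, and compares 2 control with 4 NaKtide libraries. Values are from all 10 libraries unless another fit is named. Fold changes are given below for 40 genes, tract markers not counted, and 35 of them were called with all 10 libraries. Each of these 35 was called again in the same direction without NaKtide replicate 1, and each except Ighm and Fasn without tract libraries.

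**Figure D1:**
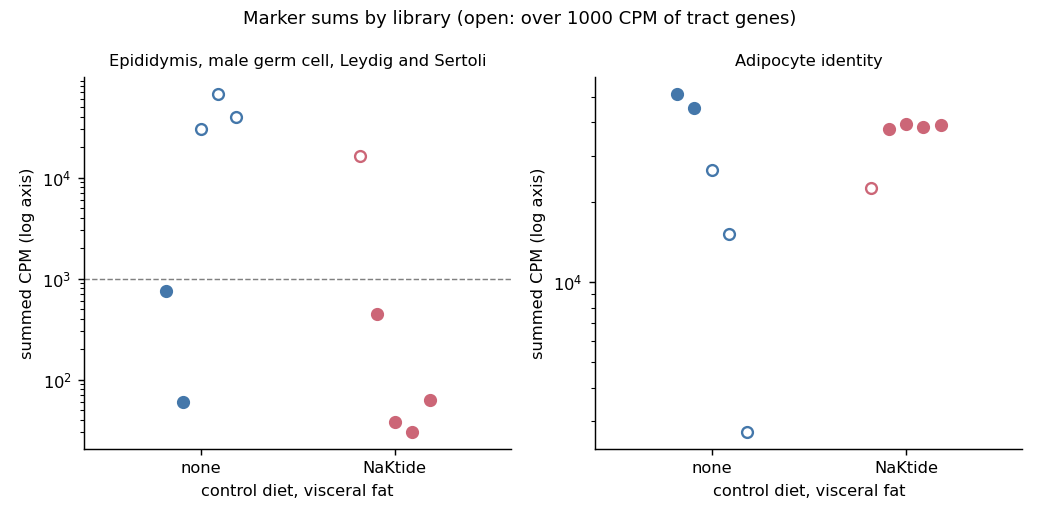
Summed CPM per library (log axes) of genes of the male reproductive tract and testis (left, dashed line at 1000 CPM) and of 24 adipocyte genes (right) in the 5 control libraries and the 5 NaKtide libraries; each point is 1 library and open points are tract libraries. The 3 open control points lie highest on the left and lowest of the control group on the right.

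Genes of macrophages, MHC class II, the NADPH oxidase and the matrix were higher with NaKtide, and lower genes included Cfd, Plin5 and Acacb of adipocyte metabolism. In edgeR's quasi-likelihood test (p-values adjusted by Benjamini-Hochberg), 1233 of 17235 genes passed adjusted p 0.05, which is 7.15% of those tested. Of these, 906 were higher with NaKtide (5.26%) and 327 were lower (1.9%). Without NaKtide replicate 1 the count was 3115 of 17446 genes (17.9%), 1405 higher (8.05%) and 1710 lower (9.8%), and without tract libraries it was 2288 of 16494 (13.9%), 1281 higher (7.77%) and 1007 lower (6.11%). All 906 higher calls and 317 of the lower calls were called again without NaKtide replicate 1. In that fit the libraries compared that lay above 1000 CPM of tract genes were all control libraries. Its lower calls included 14 of 26 epididymis genes and 12 of 17 male germ cell genes tested, against 0 of each list with all 10 libraries. The count of lower genes in that fit therefore includes tract RNA. Without tract libraries 721 of the 906 higher calls and 200 of the 323 lower calls that could be tested were called again, and none was called in the opposite direction. The median log2 fold change of all genes was -0.23, and 0.00 without tract libraries. In bulk tissue, fewer cells of a type and less RNA per cell cannot be told apart, and this holds for every result below.

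The 2 transcripts with the largest rises were Cck, the gene of the gut and brain hormone cholecystokinin, and Tph2, the neuronal form of tryptophan hydroxylase, the enzyme that starts serotonin synthesis. Cck (chromosome 9, 121489824 to 121495694, minus strand, GRCm38) was at 0.189, 0.119, 0, 0.194 and 0.134 CPM in the control libraries and at 71.7, 119, 98.1, 106 and 79.4 CPM in the NaKtide libraries. The groups were far apart in every library, tract or not, and the control level rested on 4 counts in all against 3576. The log2 fold change was 9.36 ± 0.49 (SE, n = 5 and 5; adjusted p = 3.2e-09 by edgeR's quasi-likelihood test), 9.47 without NaKtide replicate 1 and 9.27 without tract libraries. Tph2 (chromosome 10, 115078641 to 115185022, minus strand) was at 0.378, 0.238, 0.196, 0.388 and 0 CPM against 79.3, 142, 140, 148 and 116 CPM. Its log2 fold change was 8.99 ± 0.58 (adjusted p = 5.4e-08 by edgeR's quasi-likelihood test) and 8.78 without tract libraries. The partner genes that were looked up for these pathways were at low levels in both groups. Tph1, the other tryptophan hydroxylase, was at 0 CPM in all 5 NaKtide libraries and at 0 to 0.392 CPM in the control libraries. Ddc, which completes serotonin synthesis, was at 0 to 1.01 CPM with NaKtide and at 0.119 to 2.91 CPM in the control libraries. The serotonin transporter Slc6a4 was at 0.13 to 0.758 CPM with NaKtide and at 0 to 1.07 CPM in the control libraries. Cckar, a receptor of cholecystokinin, was at 0 CPM in all 10 libraries. Gpr50, a melatonin-related orphan receptor, was at 0 to 1.76 CPM in the control libraries and at 23.9, 58.5, 45.2, 41.7 and 28.1 CPM in the NaKtide libraries. Its log2 fold change was 6.08 ± 1.13 (adjusted p = 0.0028 by edgeR's quasi-likelihood test).

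The 250 bases before the annotated start of 5 of the risen genes are shown, so that the letters before their starts can be compared. They were picked after the values were seen: Cck and Tph2 had the largest rises, Ubd and Saa3 were among the 12 largest rises with separate ranges, and Trem2 had the smallest p of the macrophage markers. The sequences are RefSeq's for GRCm38.p6, read 5′ to 3′ on the gene's strand, and capitals mark matches to the motifs searched. Cck lies at chr9:121495695-121495944 on the minus strand, Tph2 at chr10:115185023-115185272 on the minus strand, Ubd at chr17:37193642-37193891 on the plus strand, Saa3 at chr7:46715677-46715926 on the minus strand and Trem2 at chr17:48346151-48346400 on the plus strand.
Cck: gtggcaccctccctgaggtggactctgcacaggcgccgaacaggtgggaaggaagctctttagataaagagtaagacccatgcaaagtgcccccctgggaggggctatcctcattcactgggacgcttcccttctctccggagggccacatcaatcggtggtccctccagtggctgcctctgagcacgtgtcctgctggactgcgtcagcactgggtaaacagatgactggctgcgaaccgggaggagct
Tph2: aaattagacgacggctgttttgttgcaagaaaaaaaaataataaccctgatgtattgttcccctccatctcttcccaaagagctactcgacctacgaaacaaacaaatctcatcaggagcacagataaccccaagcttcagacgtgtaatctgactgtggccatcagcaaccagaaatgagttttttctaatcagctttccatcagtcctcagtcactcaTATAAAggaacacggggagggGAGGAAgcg
Ubd: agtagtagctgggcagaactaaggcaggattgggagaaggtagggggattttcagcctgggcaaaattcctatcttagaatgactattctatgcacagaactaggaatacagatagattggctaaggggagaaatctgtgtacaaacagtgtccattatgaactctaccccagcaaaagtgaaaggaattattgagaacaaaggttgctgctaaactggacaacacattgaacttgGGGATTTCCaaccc
Saa3: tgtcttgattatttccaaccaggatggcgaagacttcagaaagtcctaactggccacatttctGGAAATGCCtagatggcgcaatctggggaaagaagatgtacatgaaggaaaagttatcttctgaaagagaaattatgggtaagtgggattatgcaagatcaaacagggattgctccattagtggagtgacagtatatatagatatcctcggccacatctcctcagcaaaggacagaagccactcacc
Trem2: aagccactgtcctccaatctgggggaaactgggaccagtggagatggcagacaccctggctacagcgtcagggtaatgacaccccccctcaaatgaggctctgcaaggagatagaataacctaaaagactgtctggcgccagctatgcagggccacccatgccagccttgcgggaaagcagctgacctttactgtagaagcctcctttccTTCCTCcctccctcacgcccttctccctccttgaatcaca
The motifs searched on both strands were the TATA box (TATAAA), the AP-1 site (TGACTCA), the CRE (TGACGTCA), the PU.1 core (GAGGAA) and an NF-kB site (GGNNTTTCC). Tph2 held a TATA box at bases -30 to -25 and a PU.1 core at -9 to -4, counted back from the start. Ubd held the NF-kB letters at -14 to -6, and Saa3 held them on the other strand at -187 to -179. Trem2 held a PU.1 core on the other strand at -40 to -35, none of these matches overlapped another, and none of the letters searched was found before Cck. Among 32851 RefSeq starts, the same windows held the TATA box in 12.4%, the AP-1 site in 4.46%, the CRE in 1.55%, the PU.1 core in 23.3% and the NF-kB letters in 4.93%. A match of letters is a description of the sequence and shows no binding.

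Saa3, Ubd, S100a8 and Il1rn were among the largest of the other rises, while the interferon response genes were not higher as a list. Saa3, an acute-phase serum amyloid of a family with close copies, was at 4.34, 5.00, 3.72, 4.65 and 4.29 CPM in the control libraries and at 156, 241, 213, 194 and 131 CPM in the NaKtide libraries. The control values lay within a narrow band, tract libraries included, and the log2 fold change was 5.40 ± 0.53 (adjusted p = 2.9e-05 by edgeR's quasi-likelihood test), and 5.36 ± 0.50 without tract libraries. Ubd, a ubiquitin-like modifier induced by inflammatory cytokines, was at 6.61, 5.36, 3.33, 2.52 and 0.134 CPM against 136, 236, 187, 200 and 139 CPM. For Ubd the log2 fold change was 5.64 ± 0.69 (adjusted p = 0.00025), and 5.00 ± 0.48 without tract libraries. S100a8, a calcium-binding protein of neutrophils and monocytes, had 0.134 to 1.79 CPM against 19.4 to 38.0 CPM, and Il1rn, the interleukin 1 receptor antagonist, had 0 to 0.715 CPM against 8 to 23.9 CPM. Neither range overlapped between the groups, and the log2 fold changes were 4.95 ± 0.56 and 5.24 ± 0.82 (adjusted p = 0.00013 and 0.00098), and 4.46 ± 0.53 and 4.64 ± 0.83 without tract libraries. Of 19 interferon response genes tested, 1 was higher and 0 lower, beside 5.26% and 1.9% of all genes, with a median log2 fold change of 0.01. Without tract libraries 1 was higher and 1 lower, and the median was -0.24.

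Macrophage genes rose as a group. Of 28 macrophage markers, all of which were tested, 21 were called higher and 0 lower, against 5.26% of all genes called higher, and their median log2 fold change was 2.35, against -0.23 for all genes. Without tract libraries 20 were higher, against 7.77% of all genes, and the median was 1.87. The ranges of 22 of the 28 did not overlap between the groups, with NaKtide above, against 5.95% of all genes. The summed level of the 28 genes was 1210, 1340, 884, 1370 and 431 CPM in the control libraries and 4010, 5620, 4120, 5730 and 4180 CPM in the NaKtide libraries, so the lowest NaKtide library lay above the highest control library. Trem2, a lipid-sensing receptor of macrophages, was at 4.15, 12.4, 6.27, 10.1 and 4.82 CPM against 131, 194, 107, 158 and 104 CPM. Trem2 rose on the log2 scale by 4.20 ± 0.46 (adjusted p = 8.9e-05), and 4.04 ± 0.63 without tract libraries. Gpnmb, a glycoprotein of lipid-loaded macrophages, was at 15.7, 13.5, 24.1, 53.3 and 47.4 CPM against 259, 367, 259, 519 and 225 CPM. Among the control libraries Gpnmb was higher in the 3 tract libraries, and its log2 fold change was 3.40 ± 0.68 with them and 4.55 ± 0.84 without tract libraries (adjusted p = 0.0047 and 0.0046). Itgax, an integrin of inflammatory fat macrophages and dendritic cells, rose by 3.55 ± 0.56, Adgre1, the F4/80 antigen, by 3.86 ± 0.69, and Cd68, a lysosomal glycoprotein of macrophages, by 2.96 ± 0.45 in log2 units (adjusted p = 0.00099, 0.0022 and 0.00074). Without tract libraries these rises were 3.02 ± 0.60, 3.26 ± 0.81 and 2.65 ± 0.55. Mmp12, the macrophage elastase, was at 9.06, 6.79, 2.94, 1.94 and 0.536 CPM against 91.7, 145, 121, 139 and 91.7 CPM. That was a rise of 4.78 ± 0.82 (adjusted p = 0.0017), and of 3.98 ± 0.72 without tract libraries.

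**Figure D2:**
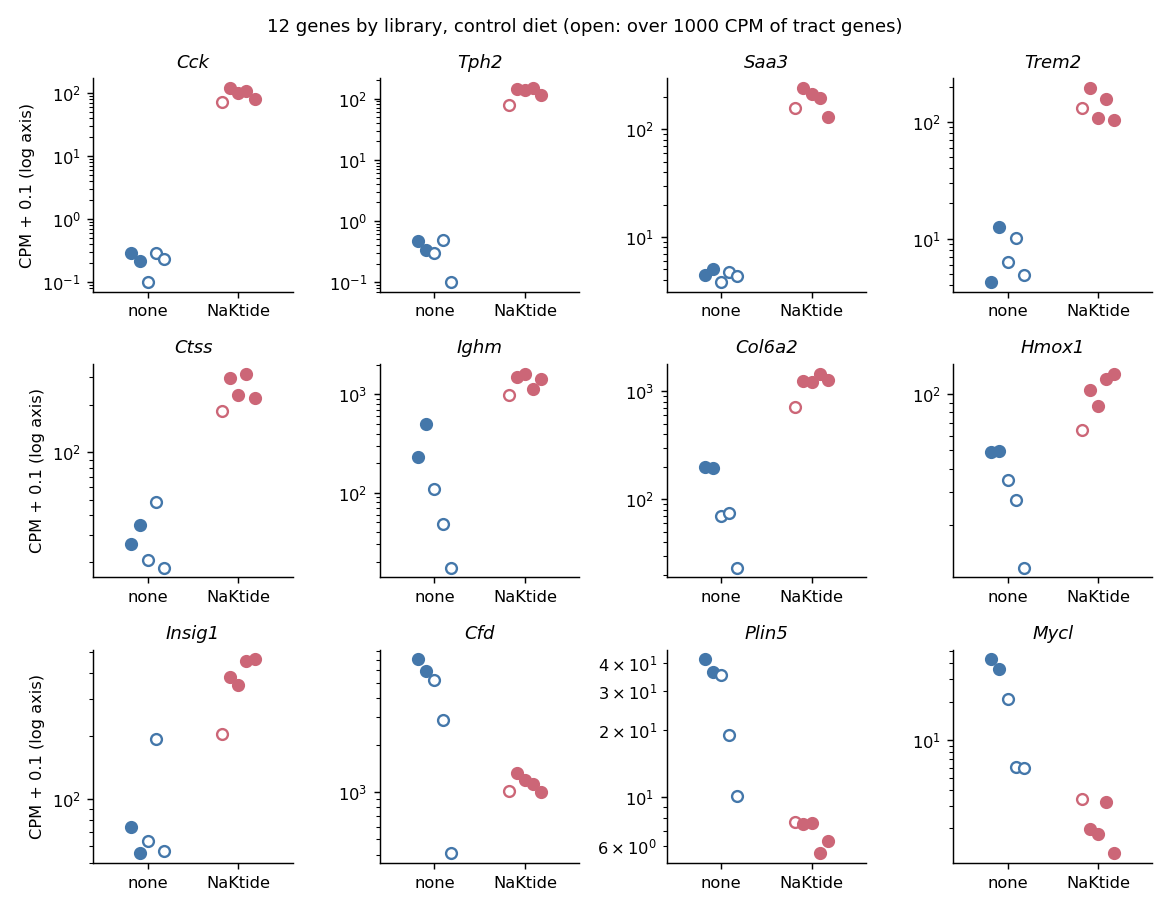
CPM + 0.1 (log axes) of 12 genes in the 5 control libraries and the 5 NaKtide libraries, 1 point per library, with tract libraries as open points. Cck, Tph2, Saa3, Trem2, Ctss, Ighm, Col6a2, Hmox1 and Insig1 are higher in every NaKtide library, Plin5 and Mycl are lower in every one, and for Cfd control replicate 5 lies below the NaKtide libraries.

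Some lysosomal genes were higher too. Of 16 lysosome genes 5 were higher and 0 lower, beside 5.26% and 1.9% of all genes, and 10 were higher without tract libraries, where 7.77% of all genes were called higher. Ctss, a cathepsin of antigen-presenting cells that also stands in the macrophage list, was at 25.9, 34.4, 20.6, 48.5 and 18.4 CPM against 182, 298, 230, 316 and 220 CPM. This was a log2 rise of 3.08 ± 0.41 (adjusted p = 0.00033), and of 3.13 ± 0.56 without tract libraries. The chemokine genes Ccl2 and Ccl7, which draw monocytes into tissue and lie side by side on chromosome 11, rose by 3.98 ± 0.72 and 3.95 ± 0.63 (adjusted p = 0.0024 and 0.0011), and by 3.81 ± 0.54 and 3.99 ± 0.64 without tract libraries. Ccl2 stood at 1.89, 3.22, 1.57, 3.68 and 0 CPM in the control libraries and at 16.2, 31.8, 26.8, 33.9 and 55.8 CPM in the NaKtide libraries, with no overlap. Of 23 cytokine and chemokine genes, 18 passed the filter on low counts and 8 of those were higher and 0 lower, beside 5.26% and 1.9% of all genes. Without tract libraries 9 of 20 were higher and 1 lower, beside 7.77% and 6.11%. Tnf and Il6, cytokines of inflamed fat, did not pass it: Tnf was at 0 to 0.944 CPM against 1.01 to 2.47 CPM, and Il6 was at 0 CPM in all 5 control libraries and 3 of the NaKtide libraries. Of 14 complement genes, which include Cfd, 7 were higher and 1 was lower, beside 5.26% and 1.9% of all genes. Without tract libraries 7 were higher and 2 lower, beside 7.77% and 6.11%.

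Most MHC class II genes, which present antigen, and a few lymphocyte markers were higher as well. Of 10 MHC class II genes 9 were tested and 7 of those were higher, beside 5.26% of all genes, with a median log2 fold change of 1.90. Without tract libraries 8 of 10 were higher, beside 7.77%, and the median was 1.22. Ciita, the factor that switches on MHC class II genes, was at 2.46, 4.05, 0.588, 1.75 and 0.67 CPM against 10.6, 15.4, 14.8, 26.9 and 15.4 CPM. Its log2 fold change was 3.10 ± 0.54 (adjusted p = 0.0019), and 2.44 ± 0.45 without tract libraries. That of Cd74, the invariant chain that guides MHC class II, was 1.96 ± 0.47 (adjusted p = 0.016), and 1.21 ± 0.21 without tract libraries (adjusted p = 0.0036). Of the B cell markers 3 of 8 tested were higher, beside 5.26% of all genes, and 1 of 8 without tract libraries, beside 7.77%. Ighm, the constant region of immunoglobulin M, was at 230, 495, 109, 48.7 and 17.3 CPM in the control libraries and at 975, 1500, 1620, 1120 and 1440 CPM in the NaKtide libraries. The groups did not overlap, but the control libraries spread widely and the lowest values were in tract libraries. The log2 fold change was 2.89 ± 0.78 (adjusted p = 0.03), and 1.97 ± 0.64 without tract libraries, where it missed the threshold (adjusted p = 0.061). Of the T cell markers 2 of 9 tested were higher, beside 5.26% of all genes, and 2 of 11 without tract libraries, beside 7.77%. Il7r, the interleukin 7 receptor of lymphocytes, rose by 5.11 ± 0.88 (adjusted p = 0.0017), from 0 to 0.755 CPM in the control libraries to 4.80 to 13.5 CPM. Without tract libraries the rise of Il7r was 4.34 ± 1.13. Of the NK cell markers 0 of 3 tested were called, and of 5 red blood cell genes 0 were called, beside 7.15% of all genes.

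Of the oxidant pathway that NaKtide addresses, genes of the NADPH oxidase were higher and Src was not called. Of 13 NADPH oxidase genes, which make superoxide, 8 were tested and 6 of those were higher, beside 5.26% of all genes, with a median log2 fold change of 2.02. Without tract libraries 7 of 9 were higher, beside 7.77%, with a median of 1.71. Cybb, the catalytic subunit of the phagocyte oxidase, was at 16.2, 15.2, 8.23, 6.21 and 3.08 CPM against 34.3, 50.1, 44.0, 76.1 and 50.6 CPM. Its log2 fold change was 2.38 ± 0.46 (adjusted p = 0.0038), and Ncf1, a cytosolic subunit of the same enzyme, rose by 1.84 ± 0.28 (adjusted p = 0.00069). Without tract libraries these were 1.81 ± 0.45 and 1.70 ± 0.33. Both are known from phagocytes, and their rise went with that of the macrophage sum given above; the part of cell number in it was not tested. Src, the kinase that NaKtide binds, was at 23.4, 26.4, 36.7, 27.5 and 44.2 CPM against 27.5, 24.9, 28.1, 25.5 and 21.7 CPM. The groups overlapped and the log2 difference was -0.31 ± 0.19 (adjusted p = 0.28), and 0.00 ± 0.21 without tract libraries. Of 12 genes of the Src family and its partners, 3 were higher and 0 lower, beside 5.26% and 1.9% of all genes. Without tract libraries 4 were higher and 1 lower, beside 7.77% and 6.11%.

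Among 12 Na,K-ATPase genes tested, 2 were higher and 0 lower, beside 5.26% of all genes called higher. Fxyd5, a small regulator of the pump, was at 42.9, 63.0, 34.5, 29.9 and 11.7 CPM in the control libraries and at 78.8, 108, 85.4, 90.6 and 82.0 CPM in the NaKtide libraries. The groups did not overlap, and Fxyd5 rose by 1.29 ± 0.30 (adjusted p = 0.014), and by 0.78 ± 0.23 without tract libraries (adjusted p = 0.041).

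Of 27 antioxidant genes 3 were higher and 4 lower, beside 5.26% and 1.9% of all genes. Without tract libraries 6 were higher and 5 lower, beside 7.77% and 6.11%. Hmox1, the haem oxygenase that is also known from macrophages, was at 49.1, 49.8, 34.7, 27.0 and 11.8 CPM against 64.3, 105, 86.6, 120 and 128 CPM, a rise of 1.55 ± 0.33 (adjusted p = 0.0078), and of 1.15 ± 0.24 without tract libraries. Gpx3, the secreted glutathione peroxidase, was at 1800, 1690, 3830, 496 and 1380 CPM against 662, 448, 404, 356 and 404 CPM. One control library, the tract library replicate 4, lay within the NaKtide range, and the log2 fold change was -2.01 ± 0.46 (adjusted p = 0.011), and -2.12 ± 0.29 without tract libraries. Of the immediate early genes 4 of 12 were higher, beside 5.26% of all genes, and 5 of 12 without tract libraries, beside 7.77%. Among them was Atf3, a stress-induced transcription factor, at 1.88 to 7.25 CPM against 36.3 to 64.3 CPM. Atf3 rose by 3.43 ± 0.42 (adjusted p = 0.00025), and by 3.52 ± 0.52 without tract libraries.

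Many matrix genes were higher in fat with NaKtide. Of 32 collagen and matrix genes 15 were higher and 0 lower, beside 5.26% and 1.9% of all genes, with a median log2 fold change of 1.66. Without tract libraries 14 were higher, beside 7.77%, with a median of 1.11. Their summed level was 8140, 8020, 4140, 2960 and 1130 CPM against 10900, 17200, 17400, 22400 and 18200 CPM. Col6a2, a chain of the collagen VI that surrounds adipocytes, was at 201, 193, 69.6, 74.5 and 23.3 CPM against 716, 1250, 1210, 1450 and 1270 CPM. Col6a2 rose by 3.39 ± 0.58 (adjusted p = 0.0016), and 2.71 ± 0.37 without tract libraries. Col1a1, a chain of fibrillar collagen I, rose by 2.65 ± 0.53 (adjusted p = 0.0048), and by 2.09 ± 0.48 without tract libraries. Of 11 general fibroblast progenitor markers tested 0 were called, beside 7.15% of all genes. Without tract libraries 1 was higher and 2 lower, beside 7.77% and 6.11% of all genes. Of 12 mesothelium markers 0 were called, beside 7.15%, and without tract libraries 1 was lower, beside 6.11%.

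**Figure D3:**
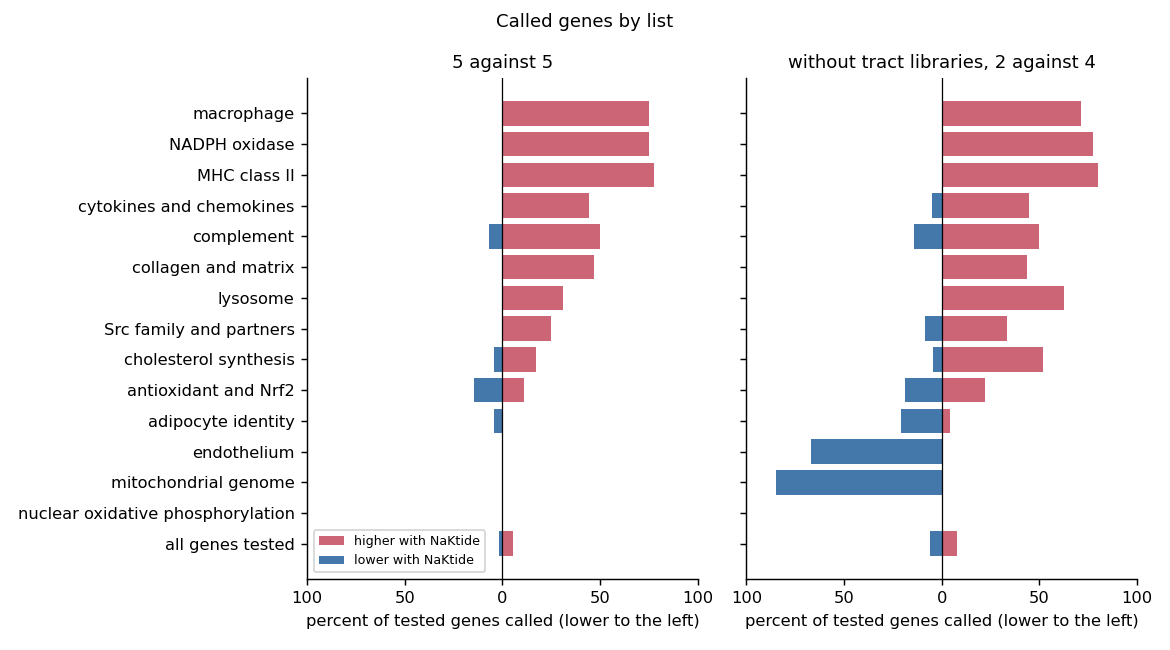
Percent of the tested genes of 14 lists, of 41 in all, that edgeR's quasi-likelihood test called higher (right of 0) or lower (left of 0) with NaKtide, with all 10 libraries (left panel) and without tract libraries (right panel). Of the lists drawn, macrophage, NADPH oxidase and MHC class II have the longest bars to the right in both panels. The bars of endothelium (8 of 12 lower) and mitochondrial genome (11 of 13 lower) appear in the right panel alone, beside 6.11% of all genes lower.

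Few adipocyte genes were called with all 10 libraries, and several of their values differed between the fits with and without tract libraries. Of 24 genes of adipocyte identity 0 were higher and 1 was lower, against 1.9% of all genes called lower, and without tract libraries 1 was higher and 5 were lower, against 6.11%. Adipoq, the adiponectin gene, was at 2390, 2130, 1320, 825 and 53.0 CPM in the control libraries and at 1170, 1920, 1980, 1330 and 1460 CPM in the NaKtide libraries. The groups overlapped, and the log2 difference was 0.23 ± 0.57 (adjusted p = 0.79), and -0.44 ± 0.24 without tract libraries (adjusted p = 0.27). Lep, the leptin gene, was at 1750, 1890, 757, 456 and 15.5 CPM against 2090, 3850, 3940, 3820 and 4310 CPM. No NaKtide library lay below a control library, yet the log2 difference of 1.89 ± 0.75 missed the threshold (adjusted p = 0.13). Without tract libraries it was 1.13 ± 0.21 (adjusted p = 0.005). Cfd, the secreted complement factor adipsin, was at 7050, 5910, 5190, 2900 and 408 CPM against 1020, 1320, 1190, 1130 and 1010 CPM. Control replicate 5, the library with the lowest adipocyte sum, was the one control library below the NaKtide group. In log2 units Cfd fell by 1.92 ± 0.51 (adjusted p = 0.028), and by 2.49 ± 0.36 without tract libraries (adjusted p = 0.0014).

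Lipolysis and lipid droplet genes did not fall as a list with all 10 libraries. Of 16 tested 1 was higher and 1 lower, beside 5.26% and 1.9% of all genes, with a median log2 fold change of 0.42. Without tract libraries 2 were higher and 4 lower, beside 7.77% and 6.11%, with a median of -0.31. Of single genes that release or burn fat, Plin5 fell with all 10 libraries. Adrb3 and Pnpla2, chosen after their values were seen, fell without tract libraries. Plin5, a lipid droplet protein that couples lipolysis to mitochondria, was at 41.4, 36.3, 35.1, 18.8 and 9.91 CPM in the control libraries and at 7.58, 7.40, 7.54, 5.46 and 6.24 CPM in the NaKtide libraries, with no overlap. It fell by 2.05 ± 0.34 (adjusted p = 0.0014), and by 2.55 ± 0.30 without tract libraries. Adrb3, the adrenergic receptor that starts lipolysis, was at 523, 692, 255, 95.2 and 10 CPM against 76.3, 132, 138, 69.9 and 148 CPM, and Pnpla2, the first triglyceride lipase, was at 3560, 2700, 1290, 729 and 271 CPM against 828, 1370, 1230, 1150 and 1130 CPM. Neither passed the test over all 10 libraries (log2 difference -1.48 ± 0.68 and -0.58 ± 0.48, adjusted p = 0.18 and 0.4). Without tract libraries the differences were -2.32 ± 0.26 and -1.36 ± 0.17 (adjusted p = 0.00033 and 0.00074), from the 2 control libraries with the highest adipocyte sums. Of 22 fatty acid oxidation genes tested, 0 were higher and 2 lower, with or without tract libraries, beside 1.9% of all genes lower with them and 6.11% without.

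Lipid synthesis genes were not of one direction. Acacb, the acetyl-CoA carboxylase at the mitochondrial membrane, was at 465, 253, 131, 43.6 and 6.03 CPM against 15.0, 21.6, 23.8, 29.0 and 25.1 CPM, a fall of 2.97 ± 0.72 (adjusted p = 0.017), and of 3.85 ± 0.27 without tract libraries. Control replicate 5 lay below the NaKtide libraries. Fasn, the fatty acid synthase, was at 1600, 787, 463, 412 and 276 CPM against 1130, 1940, 2150, 2130 and 4030 CPM. It was 1.68 ± 0.50 higher on the log2 scale (adjusted p = 0.047), and 1.10 ± 0.41 higher without tract libraries, where it missed the threshold (adjusted p = 0.1). Of 21 genes of fatty acid synthesis tested 2 were higher and 2 lower, beside 5.26% and 1.9% of all genes, and without tract libraries 2 of 22 were higher and 4 lower, beside 7.77% and 6.11%. Of 23 cholesterol synthesis genes tested 4 were higher and 1 lower, beside 5.26% and 1.9% of all genes. Without tract libraries 12 were higher and 1 lower, beside 7.77% and 6.11%. The median log2 fold change was 1.26 there, against 0.04 with all 10 libraries. Insig1, the sterol-regulated brake on this pathway, was at 73.5, 55.4, 63.5, 194 and 56.7 CPM against 204, 382, 351, 456 and 463 CPM. Control replicate 4, the library with the most tract RNA, was highest in its group, and Insig1 rose by 2.07 ± 0.37 (adjusted p = 0.0021), and by 2.68 ± 0.20 without tract libraries.

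Among the other falls with separate ranges, Mycl, a MYC family transcription factor, was at 43.1, 35.8, 20.8, 6.01 and 5.89 CPM against 3.28, 1.88, 1.69, 3.12 and 1.17 CPM. The log2 fold change of Mycl was -3.31 ± 0.68 (adjusted p = 0.0055), and -4.31 ± 0.44 without tract libraries. Chchd10, a small protein of the mitochondrial intermembrane space, was at 225, 142, 310, 205 and 80.6 CPM against 63.1, 37.1, 28.0, 43.4 and 34.9 CPM, a fall of 2.22 ± 0.36 (adjusted p = 0.0013), and of 2.36 ± 0.30 without tract libraries. Of 18 nuclear genes of oxidative phosphorylation 0 were called, beside 7.15% of all genes, and 0 without tract libraries, beside 13.9%. The 13 protein genes of the mitochondrial genome had a median log2 difference of -1.13 with 0 called, beside 7.15% of all genes. Without tract libraries their median was -1.53 and 11 were lower, beside 6.11%. The share of counts on these and other mitochondrial genes was 6.46, 4.80, 5.45, 2.60 and 0.934% in the control libraries and 2.35, 1.97, 2.02, 2.46 and 1.91% in the NaKtide libraries, which did not separate (exact permutation test, two-sided, p = 0.127). Of 12 endothelial markers 0 were called, beside 7.15% of all genes, and 8 were lower without tract libraries, beside 6.11%.

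**Figure D4:**
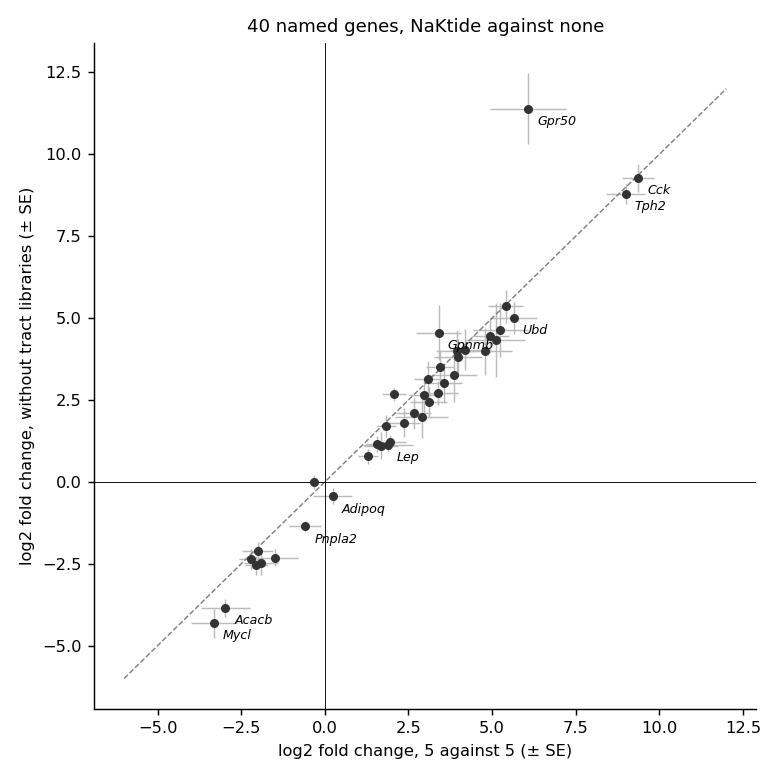
Log2 fold change (± SE) of the 40 genes, tract markers not among them, with all 10 libraries (x axis) and without tract libraries (y axis); the dashed line marks equal values. Most genes lie near the line, Adipoq lies on different sides of 0 on the 2 axes, and Gpr50 lies above the line because both control libraries kept have 0 counts of it, so that its y value is no estimate of size.

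The contrast differed between diets. The same NaKtide contrast on Western diet, 42% of fat, uses none of these 10 libraries, and the difference between the 2 contrasts passed adjusted p 0.05 for 5549 of 17235 genes (32.2%) by edgeR's quasi-likelihood test. Of the 40 genes whose fold changes are given above 37 did. Most of the 40 were picked by their control diet contrast, which is part of this difference, so that share is no independent result. Of the tract markers, which are not among the 40, the epididymal genes Lcn8 and Lcn5 did by the same test (adjusted p = 0.015 and 0.036). Gpx5, Prm2 and the protamine gene Prm1 did not (adjusted p = 0.057, 0.47 and 0.34). Tract RNA thus enters the difference between the diets. Cck was at 6.52 to 9.34 CPM on Western diet without NaKtide and at 0 to 0.232 CPM with it, a fall of 6.62 ± 0.50 against the rise of 9.36 on control diet. The difference between the diets was -15.97 ± 0.69 (adjusted p = 1.1e-10). Its size is uncertain, because Cck was near 0 in the control libraries and on Western diet with NaKtide. For Trem2 the Western diet contrast was -2.68 ± 0.43 and the difference was -6.87 ± 0.63 (adjusted p = 2.2e-06), and for Cfd they were 2.23 ± 0.52 and 4.16 ± 0.73 (adjusted p = 0.00057). The summed macrophage level ran from 2950 to 7210 CPM on Western diet without NaKtide and from 1290 to 2580 CPM with it, so the control diet libraries with NaKtide (4010 to 5730 CPM) lay within the range of the Western diet libraries without it. Of the 28 macrophage markers 20 were lower and 0 higher with NaKtide on Western diet, where 6.95% of all genes were called lower. In correlations of log2(CPM + 1) across the 17235 tested genes, which are not independent of each other, several libraries were closest to one of another group. Western diet replicates 1 and 4 with NaKtide were closest to control replicate 2 (r = 0.96 and 0.972), and Western diet replicate 2 without NaKtide was closest to control diet NaKtide replicate 2 (r = 0.976). Control replicate 4 and Western diet NaKtide replicate 5, both tract libraries, were closest to each other (r = 0.988). The other tract libraries on control diet were also closest to a library of another group. Control replicate 5 was closest to NaKtide replicate 1 on control diet (r = 0.823), and that library to control replicate 3 (r = 0.879). Control replicate 3 was closest to Western diet NaKtide replicate 5 (r = 0.919). Control replicates 1 and 2 were closest to each other, and NaKtide replicates 2 to 5 on control diet were each closest to another library of their own group. The labels were used as given, and an exchange of libraries between groups was not tested.

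**Figure D5:**
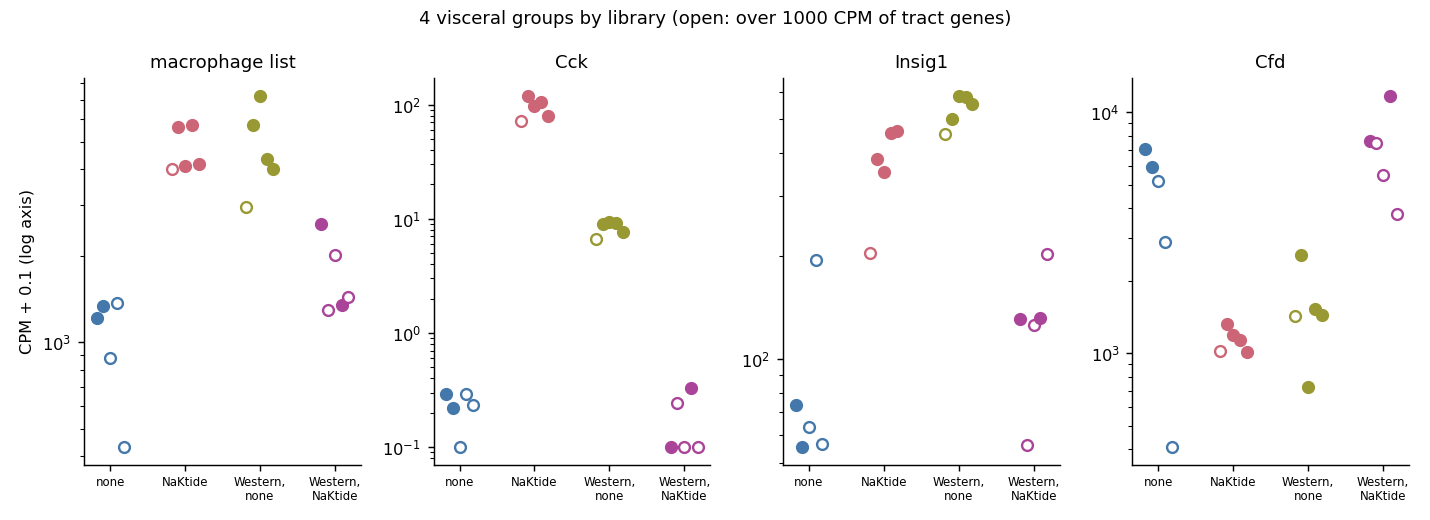
CPM + 0.1 (log axes) in the 4 visceral groups, 5 libraries each: control diet without and with NaKtide, and Western diet without and with NaKtide, for the sum of 28 macrophage markers, Cck, Insig1 and Cfd; open points are tract libraries. Macrophage sum, Cck and Insig1 are high with NaKtide on control diet and without it on Western diet, and Cfd is low in the same 2 groups, with control replicate 5 lower still.

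The contrast also differed between depots. In subcutaneous fat on control diet, 5 libraries against 5, edgeR called 0 of 17788 genes (0%), with 639 at an unadjusted p under 0.05 (3.59%), and the NaKtide effect differed between visceral and subcutaneous fat for 449 genes (2.52%). In visceral fat Trem2 was at 7.54 ± 3.55 CPM (SD, n = 5) without and 139 ± 37.7 CPM with NaKtide. In subcutaneous fat it was at 20.7 ± 31.6 and 9.25 ± 6.45 CPM. Subcutaneous libraries without NaKtide were at 2.8, 75.5, 1.14, 20.5 and 3.61 CPM, so replicate 2 set much of their mean. Subcutaneous CPM were scaled with all 40 fat libraries, and visceral CPM with the 20 visceral libraries. For Trem2 the difference of log2 effects between the depots was 5.33 ± 1.12 (edgeR, adjusted p = 0.0073). For Il7r that difference was 6.68 ± 1.45 (adjusted p = 0.0086). Cck in subcutaneous fat was at 0.478, 2.00, 37.3, 0.342 and 0 CPM with NaKtide and at 0 to 0.554 CPM without it. Replicate 3 alone was high, and the difference between the depots was 3.62 ± 2.63 (adjusted p = 0.44). Tph2 was at 160 CPM in that same library and at 0.514 to 3.34 CPM in the other NaKtide libraries of subcutaneous fat, against 0.311, 4.13, 0, 14.1 and 0.85 CPM without NaKtide, so that 2 libraries without NaKtide lay above 4 of the 5 with it. Its difference between depots was 5.91 ± 1.66 (adjusted p = 0.046).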

How the data were processed

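The authors deposited whole-number raw counts per gene for 60 libraries, and these counts were the values used; their normalized and FPKM tables were not used. Libraries were made with a stranded mRNA kit, per the labels' protocols, and GRCm38 is the build in the submitters' processing notes, which list HISAT2 2.1.0, Trimmomatic 0.38 and DESeq2 1.20.0. No counting program or annotation is given in the sources used here. Coordinates are from GENCODE M21, which held 54165 of the 54232 gene IDs.

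Counts of the 20 visceral libraries were fitted in 1 model of 4 groups with edgeR 4.0.16 in R 4.3.3 (TMM scaling, filterByExpr, quasi-likelihood test, p adjusted by Benjamini-Hochberg, threshold 0.05); 40 fat libraries were fitted together for the depots. The pipeline was tested on simulated counts with a spread near that of the fit without tract libraries and no tract RNA differing between libraries. That test does not cover the wider spread of the fit with all visceral libraries. Alternatives used RLE scaling, no filter, DESeq2 1.42.0, limma 3.58.1 voom, a replicate block, the 2 groups alone, and libraries left out. The members and gene lists were chosen with earlier results of these data known. Named genes are the 12 largest rises and falls with separate ranges and a mean level of 5 CPM or more, the called list members with the smallest p, a fixed set, and abundant tract genes. Not all are printed, and some are not reported here. Gpnmb, Itgax, Adgre1, Cd68, Col1a1, Adrb3 and Pnpla2 lie outside that rule and were chosen after their values were seen, as were the serotonin and cholecystokinin partner genes.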

Additional observations from a re-analysis of the deposited data

Results flagged for a closer look

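In 4 of 80 groups of 5 libraries, 1 library lay far from the other 4 on the log2 scale by Dixon's criterion, and chance alone does so in about 1 of 20 groups. NaKtide replicate 1, a tract library, was lowest for Col6a2 (716 CPM) and Lep (2090 CPM). Control replicate 5, the tract library with the most germ cell RNA, was lowest for Adipoq (53.0 CPM). Control replicate 4, the library with the most epididymal RNA, was highest for Insig1 (194 CPM).

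For 37 of the 40 genes whose fold changes the results give, tract markers not counted, the NaKtide effect differed between Western and control diet by edgeR's test of the interaction, in the model of all 20 visceral libraries. Most of the 40 were picked by their control diet contrast, which is part of the interaction, so that share is no independent result. The effect was lower on Western diet, in log2 units, for Cck -15.97, Tph2 -15.49, Gpr50 -11.02, Ubd -10.10, Saa3 -8.89, Il1rn -7.99, S100a8 -7.74 and Mmp12 -8.87. Lower values were also found for Trem2 -6.87, Gpnmb -6.55, Itgax -7.91, Adgre1 -6.22, Cd68 -5.17, Ctss -5.64, Ccl2 -8.54 and Ccl7 -8.13. In the same direction stood Ciita -5.21, Cd74 -3.09, Ighm -3.20, Il7r -8.51, Cybb -4.66 and Ncf1 -3.21. Further differences of this sign were Fxyd5 -2.55, Col6a2 -4.88, Col1a1 -4.13, Atf3 -6.08, Lep -3.82, Fasn -2.67 and Insig1 -4.11. The last of this sign was Hmox1 at -2.55. The effect was higher on Western diet for Cfd 4.16, Adrb3 2.91, Plin5 2.27, Acacb 3.48, Gpx3 4.15, Mycl 7.36 and Chchd10 3.52. The sizes for Cck, Tph2 and Gpr50 are uncertain. These genes were at 0 to 1.76 CPM in the control libraries and at 0 to 0.704 CPM on Western diet with NaKtide.

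For 21 named genes the effect on control diet differed between visceral and subcutaneous fat, in the model of 40 fat libraries. The visceral contrast by which most named genes were picked is part of this difference too. The log2 difference, visceral minus subcutaneous, was Tph2 5.91, Ubd 5.17, Il1rn 6.39, Trem2 5.33, Gpnmb 5.09, Itgax 4.24, Adgre1 3.82 and Cd68 3.61. For the next genes it was Ctss 3.48, Ccl7 3.82, Ciita 3.51, Cd74 2.16, Il7r 6.68, Cybb 2.68 and Ncf1 2.65. For the others it was Fxyd5 1.77, Col6a2 3.40, Col1a1 3.14, Atf3 4.82, Insig1 2.33 and Hmox1 2.08. The depots share no library.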

How the results depend on the processing

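Of the 35 named genes called, 29 stayed called in the same direction under every alternative, and none of the 35 changed direction. Calls of Cd74, Ighm, Fxyd5, Cfd, Fasn and Acacb were lost under at least 1 alternative; each was lost without NaKtide replicate 2. Signs of uncalled genes turned for Adipoq (-0.14 with voom quality weights, -0.44 without tract libraries, and -0.05 without control replicate 5 to 0.59 without control replicate 1 when 1 library was left out), Src (0.00 without tract libraries) and Pnpla2 (0.05 with the replicate block and without NaKtide replicate 1).

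The count of 1233 genes (73.5% higher) was 655 with no filter on low counts (83.1% higher), 2919 with DESeq2 (52.7% higher), 3571 with voom and library quality weights (51.8% higher), 712 when the 2 groups were fitted alone (81% higher) and 2288 without tract libraries (56% higher). Leaving out 1 library gave 628 (without NaKtide replicate 2) to 3115 (without NaKtide replicate 1); the count was 760 without control replicate 3, 814 without control replicate 4, 711 without NaKtide replicate 4 and 759 without NaKtide replicate 5. The difference between diets, 5549 genes, had 3860 to 6454 with 1 library left out. The difference between depots, 449 genes, had 290 with no filter and 1034 with DESeq2, and 260 to 1056 with 1 library left out. The cause of these shifts was not tested.

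Same-numbered libraries did not deviate together (correlations of -0.65, 0.5, -0.29, -0.21 and -0.58), so the numbers were not taken as pairs. With the replicate block the counts were 980, 4012 and 404 for the 3 contrasts, and 1728 for the first with NaKtide replicate 1 also left out.

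Depth limits genes under about 1 CPM. The biological coefficient of variation was 0.675 with all visceral libraries and 0.259 without tract libraries, a fit that rests on 2 control libraries.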

Other observations

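Several neighbouring genes and pseudogenes on chromosome 1, around Sp140, were higher with NaKtide. Between 84963669 and 85778643 (GRCm38), a window picked after the values were seen, 10 of 18 tested genes were higher with NaKtide and 0 were lower, beside 5.26% of all genes higher, with the last of the 10 ending at 85645037. The 10 had log2 fold changes from 1.76 to 6.15 by edgeR, and 9 of the 18 were higher without tract libraries, beside 7.77% of all genes. Most of the 10 are annotated as pseudogenes. The value of 6.15 is that of the pseudogene Gm2666, with 4 counts in all in the control libraries. The 10 also include Sp140, a nuclear body protein of immune cells (1.88, adjusted p = 0.0088). Its neighbours Sp110 and Sp100 differed by 0.68 and 0.64 (adjusted p = 0.28 and 0.39). Many of these are near-identical copies, so reads may be split among them, and the values of single copies are uncertain.

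Cela1, an elastase known from pancreas, was at 19.5, 33.8, 31.6, 32.4 and 4.42 CPM in the control libraries and at 90.9, 140, 138, 115 and 150 CPM with NaKtide, a log2 rise of 2.38 ± 0.39 (edgeR, adjusted p = 0.0013). It was the single member of 9 pancreatic acinar markers with enough counts to be tested, and was chosen after its values were seen.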
